A study of Mus musculus with 2 samples.

Results

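Replication-dependent histone genes encode the bulk histones that package newly copied DNA: the core histones H2A, H2B, H3 and H4, which form the nucleosome, and the linker histone H1, which binds between nucleosomes. They are known for being switched on as cells enter S phase, for lying in clusters where H2A and H2B genes are often transcribed away from each other from 1 shared promoter region, and for mRNAs that end in a conserved stem-loop instead of a poly(A) tail. The stem-loop is bound by SLBP, and the factor NPAT gathers the transcription machinery at these genes.

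The members were all genes of GENCODE release M21 (mm10) whose symbol starts with Hist1h, Hist2h, Hist3h or Hist4h, 70 of 55413 annotated genes on the main chromosomes. Of these, 67 were annotated as protein-coding, and Hist1h2aj, Hist1h2al and Hist3h2bb-ps were annotated as pseudogenes. There were 6 H1, 20 H2A, 19 H2B, 12 H3 and 13 H4 genes. Hist1 lay on chromosome 13 in a first sub-cluster of 24 genes (chr13:21710763-22048676 with 5 kb flanks) and a second of 31 genes (chr13:23526050-23939851), with Hist1h2al apart from both. Hist2 held 10 genes (chr3:96214865-96275132), Hist3 held 3 (chr11:58943920-58961830) and Hist4 held 1, Hist4h4 (chr6:136796553-136809415).

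The tissue was embryonic facial prominence, the craniofacial tissue of the mouse embryo, from B6NCrl embryos of both sexes, pooled, at embryonic day 14.5. It was profiled by DNase-seq, which cuts and sequences accessible DNA, in 2 biological replicates of a single group, both tied by the labels to 1 donor record. With 1 group and no treatment or control, values are given for each replicate and no p-value is reported. The tissue is a mixture of cell types and of cells in and out of S phase, so how many cells are open at a gene and how open each is cannot be told apart. Replicate 1 held 304233 peaks and replicate 2 held 217980 on the main chromosomes, each 150 bp wide; the read depth is unknown. All 8 facial mesenchyme markers and all 5 epithelial markers had overlapping promoter peaks in both replicates. So did 0 of 4 hepatocyte markers and 1 of 3 cardiomyocyte markers (Tnnt2). Among all protein-coding genes the share was 67.4%, so the presence of a peak alone says little about the tissue.

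A promoter was taken as 500 bp on each side of an annotated start site, and a gene had a shared promoter peak when peaks of both replicates there overlapped. The strength of a peak is the authors' own score, which ranged up to 150 in replicate 1 and 146 in replicate 2 and has no stated normalization. It is therefore given per replicate, and also as the percentile of that peak within its own replicate's list.

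Most histone promoters were open. A shared promoter peak was present at 58 of 70 histone genes (82.9%), or 56 of the 67 protein-coding ones (83.6%), beside a background of 67.4% of all 21938 protein-coding genes. No histone gene had a promoter peak in only 1 replicate, so each replicate alone also gave 58, beside 70.9% of protein-coding genes in replicate 1 and 68.7% in replicate 2. Of the 70, 42 histone genes in replicate 1 (60%) and 37 in replicate 2 (52.9%) had 2 or more promoter peaks, beside 44.2% and 42.8% of protein-coding genes. The authors' broader enriched regions, called hotspots, gave the same count of 58, beside 68.0% of protein-coding genes. Peaks at or above percentile 90 in both lists stood at 55 of the 70 histone genes (78.6%), beside 49.1% of protein-coding genes. Because neighbouring genes can share a peak, the 58 genes rested on 46 different highest peaks in each replicate.

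At the 58 genes the highest promoter score ran from 31 to 146 with a median of 137 in replicate 1, and from 19 to 131 with a median of 119 in replicate 2. Other protein-coding genes with a promoter peak in both replicates had medians of 122 in replicate 1 and 111 in replicate 2. The score was higher in replicate 1 at 57 of the 58 genes, and the exception was Hist1h4i, which had 113 in replicate 1 and 115 in replicate 2. The histone median was above that of the other genes by 15 score units in replicate 1 and by 8 in replicate 2, and the difference was not tested.

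**Figure D1:**
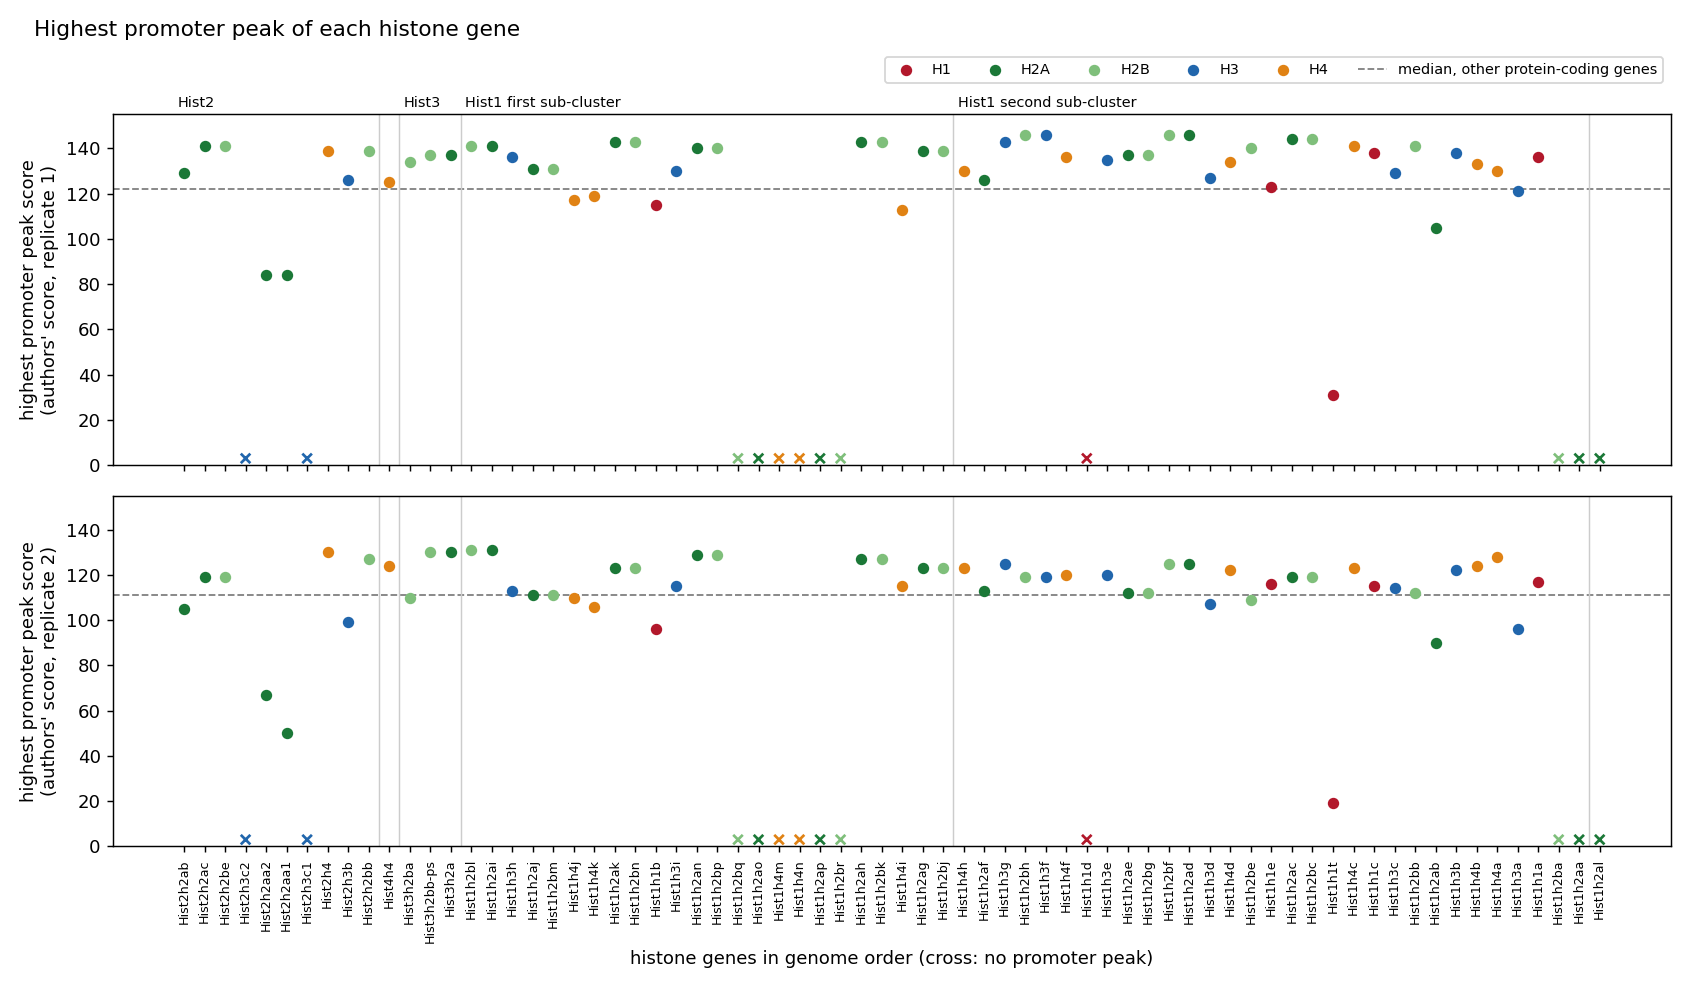
Highest promoter peak score (y axis, authors' score) of each of the 70 histone genes in genome order (x axis), coloured by type, in replicate 1 (top) and replicate 2 (bottom); crosses at the base mark genes with no promoter peak, and the dashed line is the median of other protein-coding genes with peaks in both replicates (122 and 111). Vertical lines part the loci: Hist2, Hist4 (Hist4h4 alone), Hist3, the Hist1 sub-clusters and Hist1h2al. Most genes lie above the dashed line, and the 12 genes without a peak fall into a few blocks.

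Sequences from the GRCm38 (mm10) assembly are shown here for the promoters on which the results turn. The first is the stretch between the start sites of Hist1h2bl and Hist1h2ai, the divergent H2B and H2A genes with the highest mean percentile of all members (chr13:21716144-21716421, plus strand). The next 2 are the 250 bases upstream of the start of Hist1h3g, the H3 gene with the highest mean percentile (chr13:23535172-23535421, plus strand), and of Hist1h1c, the H1 gene with the strongest 3′ peak (chr13:23738558-23738807, plus strand). Capitals mark every match, on either strand, to 5 motifs: CCAAT (bound by NF-Y), TATAAA (the TATA box), ATGCAAAT (the octamer bound by POU2F1), TTTNNCGC (an E2F-like site) and AAACACA (an element described in H1 promoters).
Hist1h2bl/Hist1h2ai: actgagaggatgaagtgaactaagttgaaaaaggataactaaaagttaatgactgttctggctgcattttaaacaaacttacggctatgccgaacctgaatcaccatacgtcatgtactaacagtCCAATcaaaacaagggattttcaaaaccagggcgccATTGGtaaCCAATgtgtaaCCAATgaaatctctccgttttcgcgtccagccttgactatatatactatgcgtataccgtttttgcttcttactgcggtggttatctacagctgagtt
Hist1h3g: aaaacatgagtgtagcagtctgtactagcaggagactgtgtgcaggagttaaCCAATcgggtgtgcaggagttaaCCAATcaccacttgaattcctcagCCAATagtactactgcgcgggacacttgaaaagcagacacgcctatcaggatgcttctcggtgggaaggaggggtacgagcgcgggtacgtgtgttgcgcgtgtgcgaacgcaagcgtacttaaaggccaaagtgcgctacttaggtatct
Hist1h1c: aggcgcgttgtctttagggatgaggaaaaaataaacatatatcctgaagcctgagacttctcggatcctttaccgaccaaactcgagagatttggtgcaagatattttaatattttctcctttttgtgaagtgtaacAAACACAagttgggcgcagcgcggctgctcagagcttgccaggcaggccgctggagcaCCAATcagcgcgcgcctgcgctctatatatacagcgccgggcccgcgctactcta
The H2B and H2A pair carried 4 CCAAT matches within its 278 bases, Hist1h3g carried 3 CCAAT matches, and Hist1h1c carried 1 AAACACA and 1 CCAAT match.

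These motifs were counted in the window from 250 bases upstream to 50 bases downstream of each gene's start. CCAAT was present in 84.3% of histone promoters, against 38.9% of the promoters of other protein-coding genes. It was in all 20 H2A and all 19 H2B promoters, in 11 of 12 H3 and 5 of 6 H1 promoters, and in 4 of 13 H4 promoters. The H3 and H1 genes without it were Hist1h3f and Hist1h1d, whose annotated starts lie 433 and 1828 bp from their start codons. The window of Hist1h2be likewise stands at an annotated start 35138 bp from its codon. TATAAA was in 52.9% of histone promoters, against 12.5% of others. The octamer was in 24.3% of histone promoters, against 1.51% of others, and all 17 cases were H2A (8) or H2B (9) genes. The E2F-like TTTNNCGC was in 31.4% of histone promoters, against 6.23% of others, and in none of the 12 H3 promoters. AAACACA was in 4 of 6 H1 promoters (66.7%) and in 14.3% of all histone promoters, against 6.37% of others. A match is a description of the letters and not a measured binding site, and divergent genes and near-identical copies share letters.

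Divergent H2A and H2B genes that shared a promoter peak had a higher median score than the other open histone genes in both replicates. Of the 70 genes, 28 formed 14 divergent H2A and H2B pairs with start sites 173 to 306 bp apart. In 11 of these pairs the same peak was the highest for both genes in both replicates, and the remaining pairs had no promoter peak. Starts this close have promoter windows that largely overlap, so a shared highest peak is largely set by the window. The 22 genes in those 11 pairs had a median score of 141 in replicate 1 and 123 in replicate 2. The other 36 genes with a shared promoter peak had 130 in replicate 1 and 115 in replicate 2. The 22 genes rested on 11 different highest peaks in each replicate, and the 36 on 35. All open H1, H3 and H4 genes are among the 36, so the comparison mixes pairing with type, and the part of each was not tested. Hist1h2bf and Hist1h2ad, 185 bp apart, shared a peak with scores of 146 in replicate 1 and 125 in replicate 2. Hist1h2bl and Hist1h2ai, 279 bp apart, shared a peak with 141 in replicate 1 and 131 in replicate 2, at chr13:21716236-21716385 in replicate 1, which covers the CCAAT matches printed above. The pseudogene Hist1h2aj shared its peak with Hist1h2bm (131 in replicate 1 and 111 in replicate 2), and the pseudogene Hist3h2bb-ps shared its peak with Hist3h2a (137 in replicate 1 and 130 in replicate 2), so neither can be read apart from its coding partner.

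By type, H2B genes had median scores of 140.5 in replicate 1 and 121 in replicate 2 (16 of 19 with a shared peak). H2A genes had 138 and 119 (16 of 20), H3 genes 132.5 and 114.5 (10 of 12), H4 genes 130 and 123 (11 of 13), and H1 genes 123 and 115 (5 of 6), each with replicate 1 first. The order of types was not the same in the replicates: H2B led in replicate 1 and H4 in replicate 2, while H1 was lowest in replicate 1 and H3 in replicate 2. The medians of H2B and H2A were above those of H3 and H1 in both replicates, and the type medians spanned 17.5 score units in replicate 1 and 8.5 in replicate 2. No test of these differences was made.

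**Figure D2:**
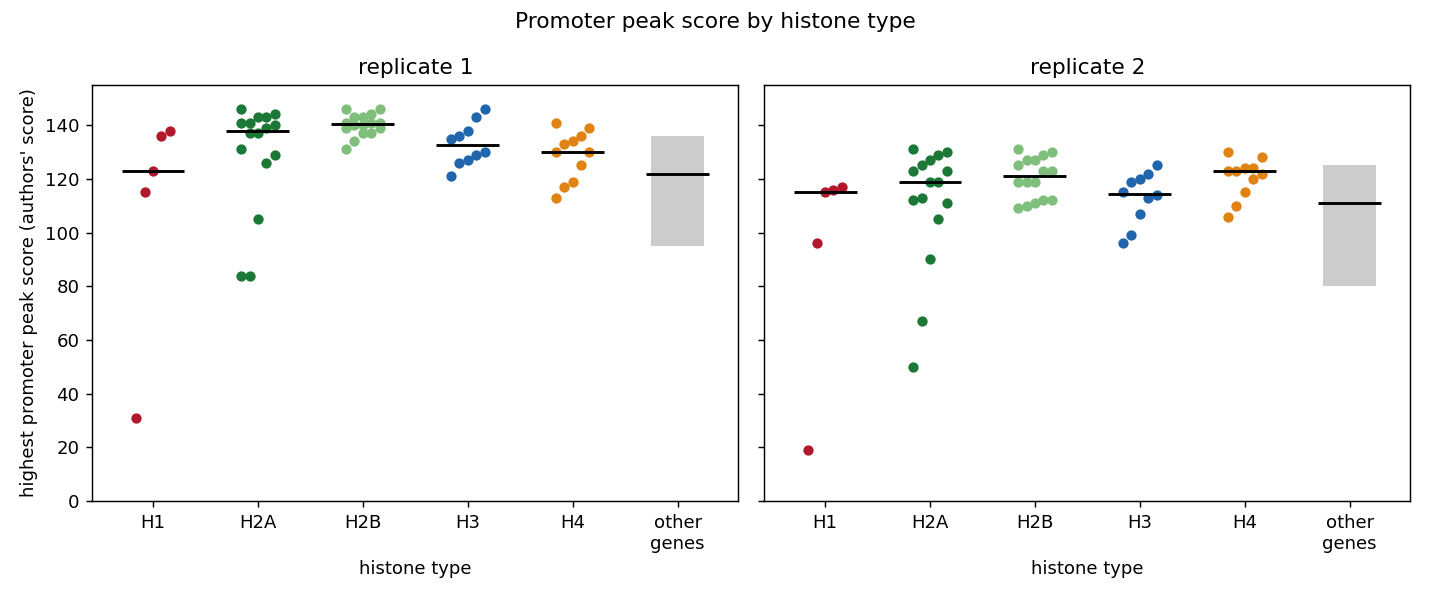
Highest promoter peak score (y axis, authors' score) of each histone gene with a promoter peak, by type (x axis), in replicate 1 (left) and replicate 2 (right); points are genes, black lines are medians, and the grey bar gives the quartiles and median of other protein-coding genes with peaks in both replicates. H2A and H2B points come in coinciding pairs because divergent genes share a peak, and the lone H1 point at 31 and 19 is Hist1h1t.

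Within H2A, Hist1h2ai (141 in replicate 1, 131 in replicate 2) and Hist1h2ah (143 and 127) were highest by mean percentile. Hist2h2aa1 (84 in replicate 1, 50 in replicate 2) and Hist2h2aa2 (84 and 67) were lowest. Within H2B, Hist1h2bl and Hist1h2bk (143 and 127) led, and Hist3h2ba (134 and 110) and Hist1h2bm (131 and 111) were lowest, a narrow range. Within H3, Hist1h3g (143 and 125) and Hist1h3f (146 and 119) led, and Hist2h3b (126 and 99) and Hist1h3a (121 and 96) were lowest. The annotated start of Hist1h3f lies 433 bp from its start codon, and its highest peak was that of its neighbour Hist1h2bh; at its start codon Hist1h3f had 122 in replicate 1 and 111 in replicate 2.

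Within H4, Hist2h4 (139 in replicate 1, 130 in replicate 2) and Hist1h4c (141 and 123) led. Hist1h4j (117 and 110) and Hist1h4k (119 and 106) were lowest. The 3 open H4 genes of the first Hist1 sub-cluster, Hist1h4i, Hist1h4j and Hist1h4k, had medians of 117 in replicate 1 and 110 in replicate 2, against 133.5 and 123 for the 6 of the second sub-cluster. These groups did not overlap in either replicate: the highest of the first was 119 in replicate 1 and 115 in replicate 2, and the lowest of the second was 130 in replicate 1 and 120 in replicate 2. The core windows of the 3 were also more repeated in the genome, at 20 to 69.3% of bases. For the 6 of the second the range was 0 to 10%, and the part of this in the difference was not tested. This H4 contrast was picked after its values were seen, and not all types shared it. H2A medians were higher in the first sub-cluster, at 140.5 in replicate 1 and 125 in replicate 2, against 137 and 113. H2B medians changed order between the replicates. H3 medians and the single H1 gene of the first sub-cluster were lower in both replicates.

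By locus, median scores ran from 125 to 139 in replicate 1 and from 112 to 130 in replicate 2. The first Hist1 sub-cluster had 139 in replicate 1 and 123 in replicate 2 (18 of 24 genes with a shared peak), and the second had 136.5 and 119 (28 of 31). With each shared peak counted once, the order of these sub-clusters turned: averaged over the replicates, the first had 124.25 (131 per gene) and the second 126.75 (127.75 per gene). Hist2 had 134 and 112 (8 of 10), Hist3 had 137 and 130 (3 of 3), and Hist4h4 alone had 125 and 124. In Hist2, Hist2h2ac and Hist2h2be shared a peak of 141 in replicate 1 and 119 in replicate 2, Hist2h2bb had 139 and 127, and Hist2h2ab had 129 and 105. In Hist3, the start of the non-histone gene Trim17 coincides with that of Hist3h2a, so the peak of 137 and 130 belongs to both. Hist4h4 had peaks on both sides of its coding sequence: at -35.5 bp it scored 119 in replicate 1 and 124 in replicate 2, and a peak past its stem-loop scored 125 in replicate 1 and 109 in replicate 2.

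The position of the highest peak varied with the type of histone. In H2B genes the median position of its centre was -127.5 bp (replicate 1) and -123.5 bp (replicate 2), where negative values are upstream of the annotated start. In H2A genes it lay at -119 bp in both replicates, in H3 genes at -66.5 bp in both and in H4 genes at -62.5 bp in both. In H1 genes it lay at 27.5 bp in replicate 1 and 14.5 bp in replicate 2, on the start itself or just inside the gene. Other protein-coding genes had medians of -40.5 and -39.5 bp. In the divergent pairs with a peak, its centre lay between their start sites, near the middle in some and closer to a start in others. For Hist1h2an and Hist1h2bp, 243 bp apart, it lay at -192.5 and -50.5 bp in replicate 1.

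**Figure D3:**
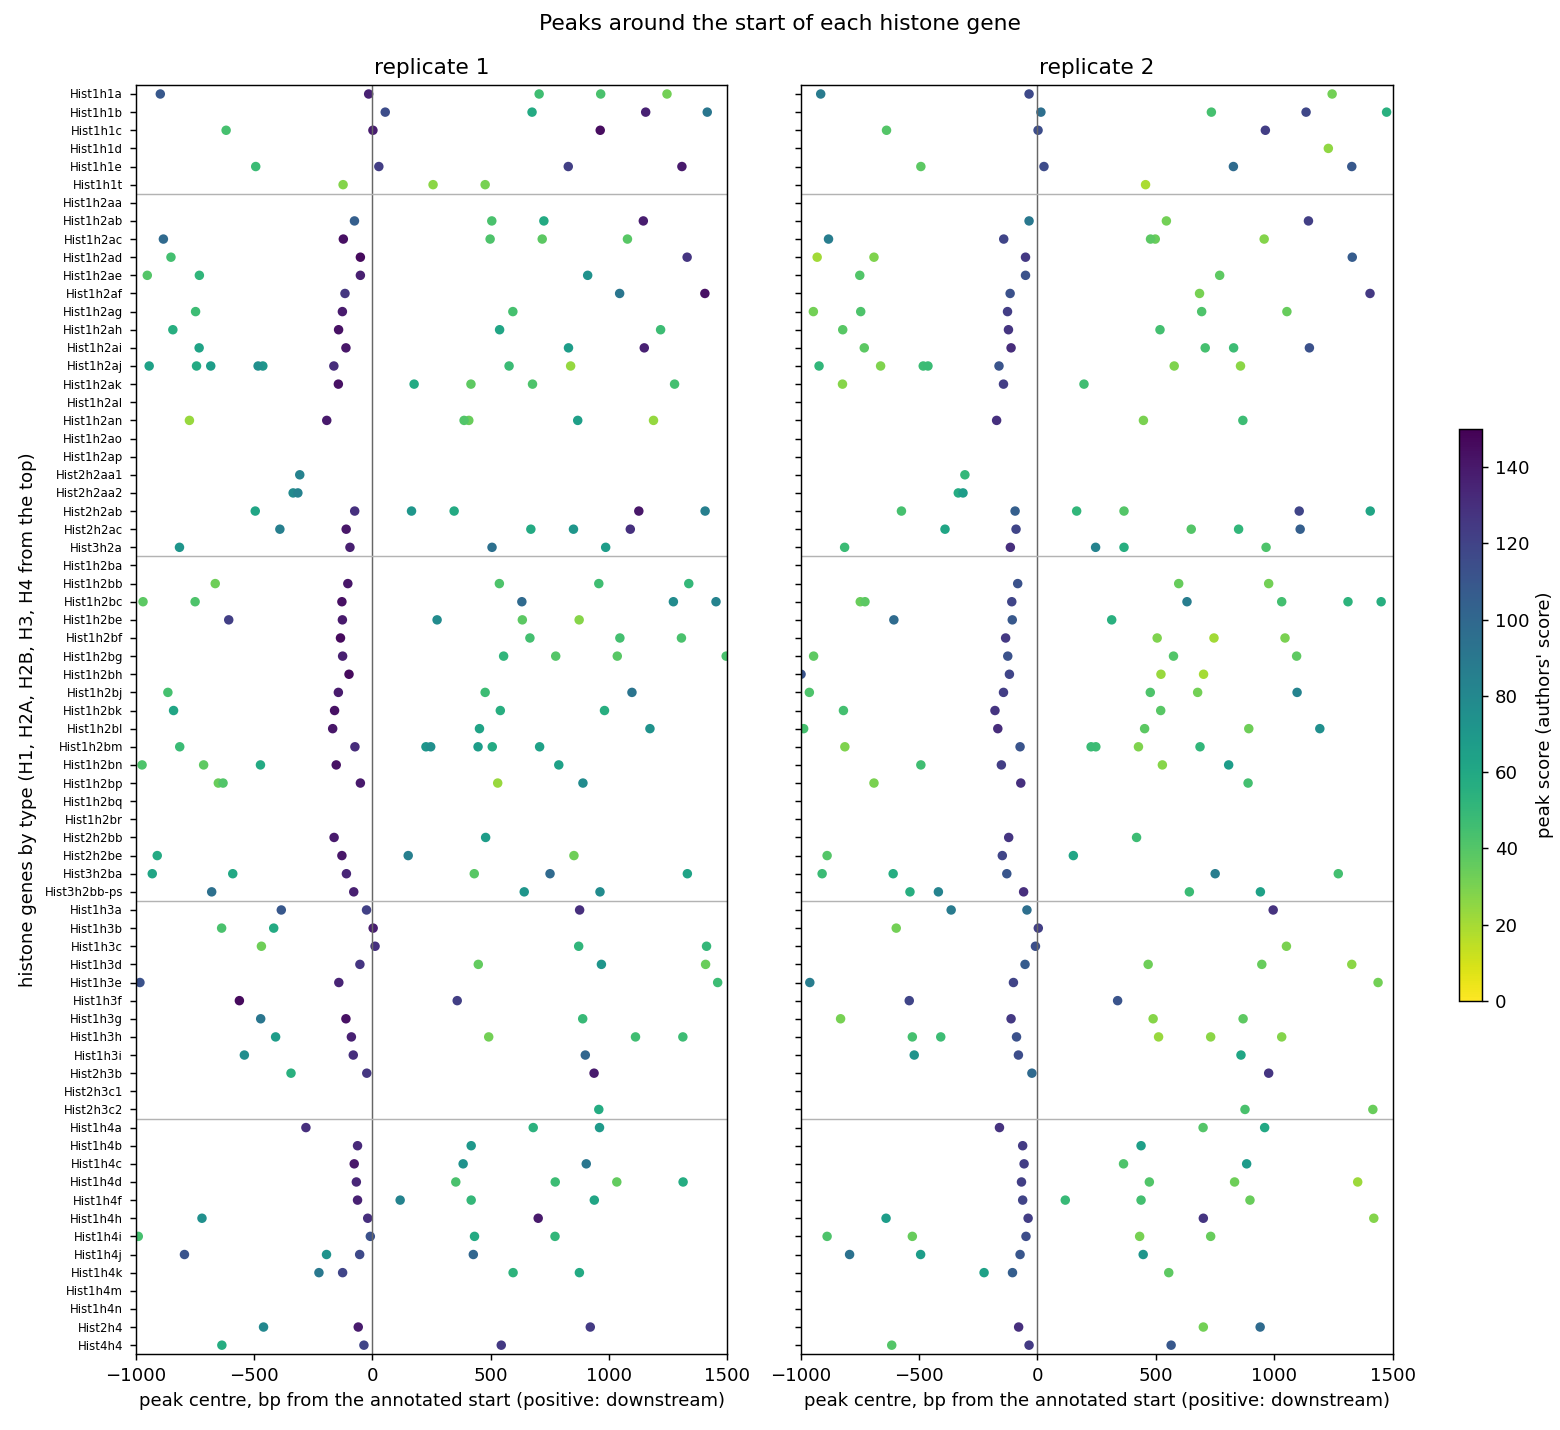
Centre of every peak from 1000 bp upstream to 1500 bp downstream of the annotated start (x axis, bp) of each histone gene (y axis, grouped by type with H1 at the top), coloured by the authors' score, in replicate 1 (left) and replicate 2 (right). Dark points line up just upstream of the start in H2A, H2B, H3 and H4 genes and on the start in H1 genes; strong points beyond 1000 bp downstream can be promoters of neighbouring histone genes, and rows with no points near the start include the 12 genes without a promoter peak.

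No promoter peak was found in either replicate at 12 histone genes, 17.1% of the 70, beside 28.1% of protein-coding genes. Of these, 8 lie in near-identical inverted copies. In the first Hist1 sub-cluster these are Hist1h2bq, Hist1h2ao and Hist1h4m on one arm and Hist1h2br, Hist1h2ap and Hist1h4n on the other. In Hist2 they are the H3 genes Hist2h3c1 and Hist2h3c2. The 1001-base promoter windows of Hist1h4m and Hist1h4n aligned with 4 mismatches, those of Hist2h3c1 and Hist2h3c2 with 1 mismatch over 986 aligned bases, and those of Hist1h2bq and Hist1h2br with 0 over 999. The 250 bases upstream of Hist1h4m (chr13:21811496-21811745, plus strand) and of Hist1h4n (chr13:21832197-21832446, minus strand) are shown because all 250 are the same in both, with the single TATAAA match in capitals.
Hist1h4m: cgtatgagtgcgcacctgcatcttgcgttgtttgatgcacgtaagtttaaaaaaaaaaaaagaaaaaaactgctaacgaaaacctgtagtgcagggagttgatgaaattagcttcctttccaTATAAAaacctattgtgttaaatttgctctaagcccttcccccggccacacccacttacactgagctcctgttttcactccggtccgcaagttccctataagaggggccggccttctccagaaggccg
Hist1h4n: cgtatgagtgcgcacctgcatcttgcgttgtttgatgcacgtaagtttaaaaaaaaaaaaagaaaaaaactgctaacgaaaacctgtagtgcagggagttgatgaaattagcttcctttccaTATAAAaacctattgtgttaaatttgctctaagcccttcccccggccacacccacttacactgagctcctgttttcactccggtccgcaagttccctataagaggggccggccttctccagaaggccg

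Of the bases in these 8 windows, 99.4 to 100% lay in 36-base words that occur elsewhere in the genome. A short read from such a word has more than 1 place to align, and how the authors treated such reads is not given in the sources used here. A promoter peak in both replicates was found at 0 of these 8 genes and at 10 of 825 other protein-coding genes with at least 99% of repeated bases (1.21%). With 30 to 70% repeated, it was found at 39 of 39 histone genes and 320 of 1211 others (26.4%). With under 10% repeated, it was found at 8 of 9 histone genes and 77.1% of others. The part of repeated sequence in the absence of these 8 peaks was not tested. Without these 8 genes, 58 of 62 histone genes had a shared promoter peak.

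**Figure D4:**
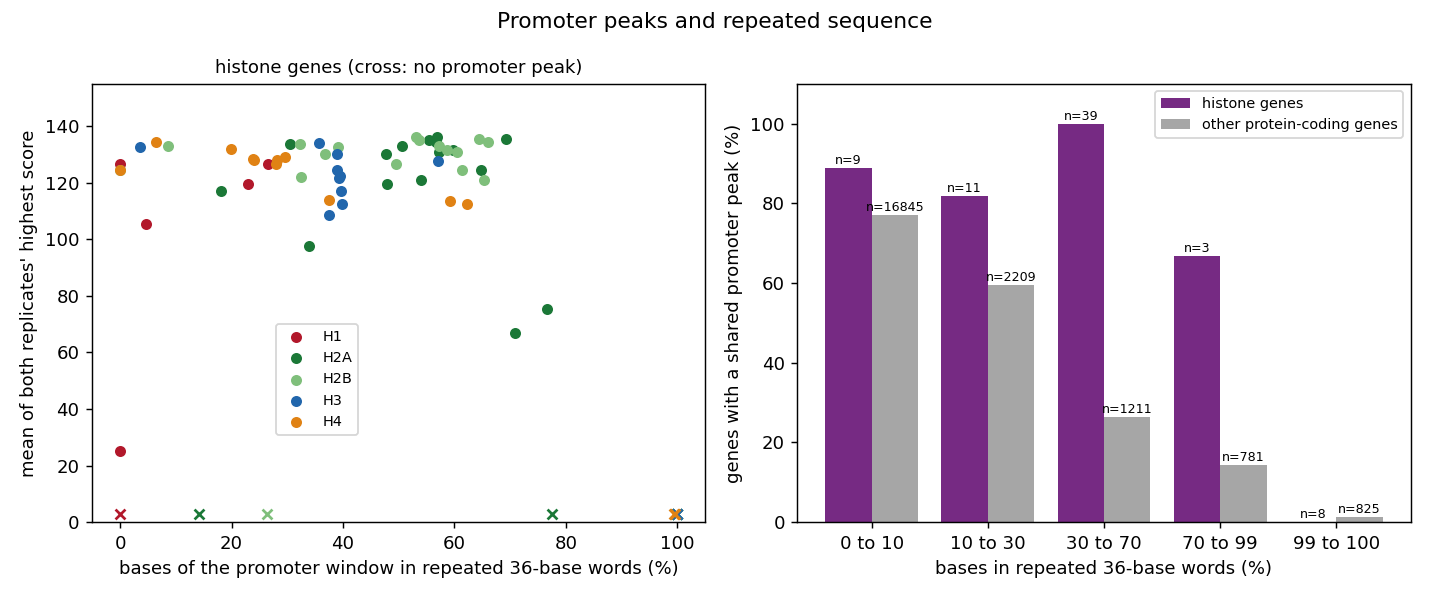
Left, mean of both replicates' highest promoter score (y axis) against the percentage of the 1001-base promoter window in repeated 36-base words (x axis) for each histone gene, with crosses for genes without a promoter peak. Right, percentage of genes with a shared promoter peak (y axis) in 5 ranges of that percentage (x axis), histone genes in purple beside other protein-coding genes in grey, with the number of genes above each bar: 39 of 39 histone genes had one at 30 to 70%, and 0 of 8 at 99% or more.

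Hist2h2aa1 and Hist2h2aa2, the H2A genes of the same inverted Hist2 copy, had only weaker peaks, away from their starts. Their windows held 70.8% repeated bases in Hist2h2aa1 and 76.6% in Hist2h2aa2, and their core windows 86% and 99.7%. The peaks lay at -306.5 bp and -314.5 bp.

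The other 4 genes without a peak were Hist1h2al, Hist1h1d and a testis pair. Hist1h2al is the pseudogene that lies apart, with 77.4% repeated bases. Hist1h1d encodes a somatic H1, and its annotated start lies 1828 bp from its start codon. A window at the codon held a peak of 133 in replicate 1 and 103 in replicate 2. The absence holds for the annotated start only, and which start is used in this tissue was not measured. Hist1h2be likewise has an annotated start 35138 bp from its codon; the peak at that start, 140 in replicate 1 and 109 in replicate 2, lies inside the annotated gene of its neighbour Hist1h1e, and the codon window had 127 and 107.

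The testis-specific histone genes stood apart from the somatic ones. Hist1h2ba and Hist1h2aa, a divergent pair whose start sites are 306 bp apart, had no promoter peak in either replicate. Of their core windows 0% was repeated, and of the full windows 26.4% for Hist1h2ba and 14.1% for Hist1h2aa. Hist1h1t, the testis H1, had only weak peaks: its highest scored 31 in replicate 1 and 19 in replicate 2, at percentiles 11.4 and 7.19, and was centred at 476.5 and 456.5 bp downstream of its start. Its window held 0% repeated bases, and its nearest score among H1 genes was that of Hist1h1b, with 115 in replicate 1 and 96 in replicate 2. The first 300 bases between the starts of the testis pair (chr13:23934157-23934456, plus strand) and the 250 bases upstream of Hist1h1t (chr13:23695564-23695813, plus strand) are shown with the same motifs in capitals, for comparison with the open promoters above.
Hist1h2ba/Hist1h2aa: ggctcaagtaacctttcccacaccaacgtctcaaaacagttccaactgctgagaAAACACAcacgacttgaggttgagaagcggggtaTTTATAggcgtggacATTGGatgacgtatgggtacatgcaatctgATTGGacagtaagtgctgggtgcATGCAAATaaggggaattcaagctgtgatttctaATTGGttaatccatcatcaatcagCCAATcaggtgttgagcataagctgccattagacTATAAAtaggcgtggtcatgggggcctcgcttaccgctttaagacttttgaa
Hist1h1t: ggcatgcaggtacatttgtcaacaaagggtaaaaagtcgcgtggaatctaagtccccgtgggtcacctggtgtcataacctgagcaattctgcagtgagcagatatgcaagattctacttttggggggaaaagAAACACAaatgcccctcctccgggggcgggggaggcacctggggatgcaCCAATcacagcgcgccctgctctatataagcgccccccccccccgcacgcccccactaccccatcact
The testis pair carried 4 CCAAT, 2 TATAAA, 1 octamer and 1 AAACACA match, no fewer than the open pair. Hist1h1t carried 1 AAACACA and 1 CCAAT match, as Hist1h1c did.

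The 3′ ends were marked by the stem-loop. A match to the stem-loop motif (GGNNC, then TTTTN, then AGNNCC, without a gap) on the sense strand was found within 200 bp of the last coding base in 60 of the 67 protein-coding genes, at a median of 35 bp (25 to 62 bp). There were 6 forms, shown with the loop in capitals, each named for 1 gene that carries it.
Hist1h1c: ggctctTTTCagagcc
Hist1h1t: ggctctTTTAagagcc
Hist1h4h: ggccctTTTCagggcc
Hist2h4: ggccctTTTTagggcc
Hist1h4j: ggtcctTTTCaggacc
Hist2h2ac: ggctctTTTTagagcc
The form in Hist1h1c (chr13:23739512-23739527, plus strand) was carried by 38 genes, and that in Hist1h1t (chr13:23696525-23696540, plus strand) by 9. The form in Hist1h4h (chr13:23531458-23531473, plus strand) was carried by 8 genes, all of them H4. The forms in Hist2h4 (chr3:96262939-96262954, minus strand) and Hist1h4j (chr13:21735437-21735452, plus strand) were carried by 2 H4 genes each, and that in Hist2h2ac (chr3:96220418-96220433, minus strand) by 1 gene. The testis genes Hist1h1t, Hist1h2aa and Hist1h2ba carried forms that somatic genes also carry.

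Several H1, H4 and H2B genes had a strong peak past the stem-loop. Peaks centred from 100 bp before to 600 bp after it, and not at another histone promoter, were compared; this window was chosen after the values were seen. A shared peak was present there in 37 of the 60 genes. Over genes with any peak there, shared or not, median highest scores were 64 in replicate 1 and 42.5 in replicate 2, below the promoter medians. At or above percentile 90 in both replicates stood 10 genes: 4 of 6 H1, 3 of 12 H4, 3 of 14 H2B, 0 of 17 H2A and 0 of 11 H3. The same window set at the last coding base, without peaks at the start of another protein-coding gene, held a shared peak in 39 of the 67 protein-coding histone genes (58.2%), beside 5.51% of all protein-coding genes. At or above percentile 90 in both replicates stood 9 histone genes (13.4%) there, 4 of them H1, beside 0.492% of all protein-coding genes. Histone genes are short, so their 3′ windows lie close to their own promoters; the part of this in the shares was not tested.

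Hist1h1c had 145 in replicate 1 and 123 in replicate 2 at 251 bp past the stem-loop, above the 138 and 115 at its promoter. Hist1h1b had 136 and 118 at 374 and 354 bp, above its promoter scores of 115 and 96. Hist1h1d had 134 and 113, beside 133 and 103 at its start codon. These genes had a 3′ peak at least as strong as the promoter peak in both replicates.

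Hist1h1e had 122 in replicate 1 and 98 in replicate 2 at 59 bp past the stem-loop, below its promoter scores of 123 and 116. A further peak of 140 and 109 inside the annotated Hist1h1e gene was left out here because it lies at the annotated start of Hist1h2be. Hist1h1a had only 46 and 32 there, and Hist1h1t had none. Among H4 genes, Hist1h4h had 140 and 127 at 285 bp, above 130 and 123 at its promoter, while Hist2h4 had 124 and 98, below its promoter scores of 139 and 130. The third H4 gene was Hist4h4, whose 3′ peak, given above, is also the highest in its promoter window in replicate 1. The strong H2B peaks were weaker than these, with 98 and 93 for Hist1h2be, 99 and 87 for Hist1h2bc, and 99 and 87 for Hist3h2ba.

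**Figure D5:**
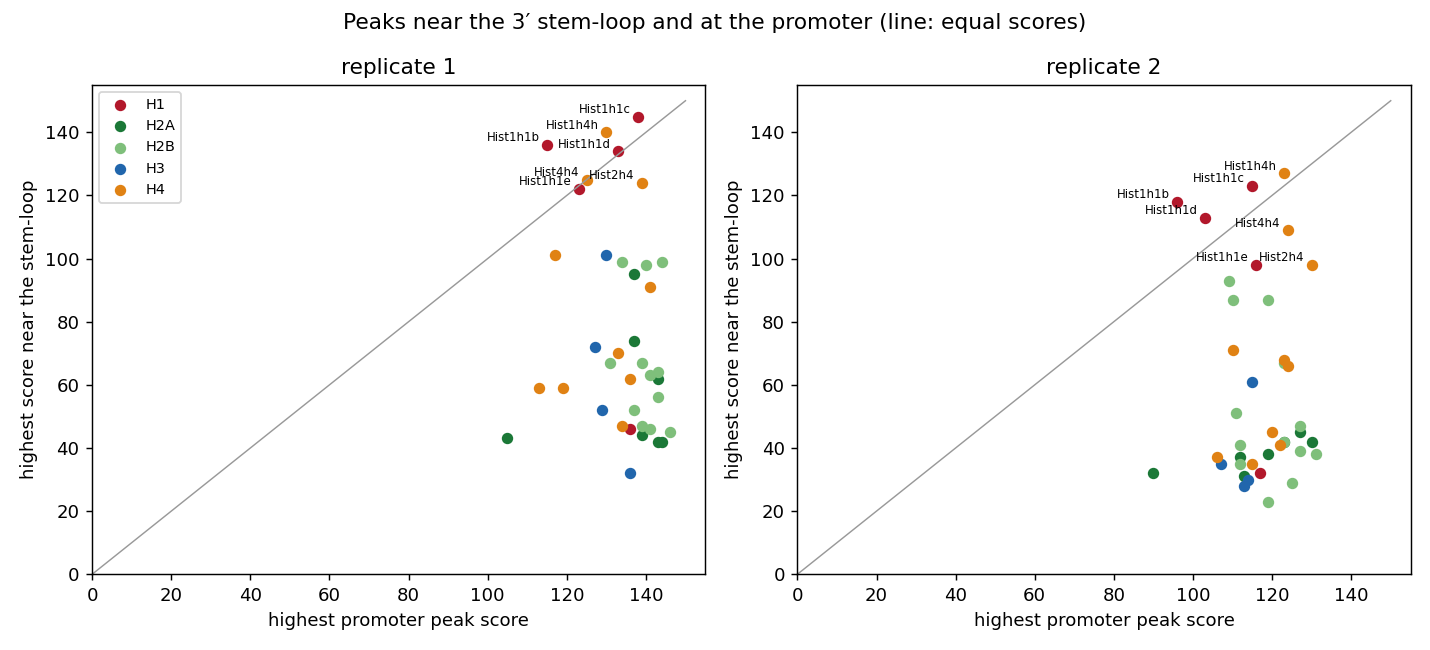
Highest peak score near the 3′ stem-loop (y axis) against the highest promoter score (x axis; for Hist1h1d, the score at its start codon), in replicate 1 (left) and replicate 2 (right), for genes with both peaks, coloured by type; the grey line marks equal scores, and H1 and H4 genes at or above percentile 90 in both replicates are named. Hist1h1c, Hist1h1b, Hist1h1d and Hist1h4h lie above the line in both replicates, and most other genes lie far below it.

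By median, the hotspots of H1 genes were also wider. In the 5 open H1 genes the widest hotspot touching the promoter spanned a median of 1562 bp (replicate 1) and 1605 bp (replicate 2). It was 341 and 327 bp for H2A, 502 and 521.5 bp for H2B, 653.5 and 615 bp for H3, 658 and 749 bp for H4, and 904 and 887 bp for other protein-coding genes with peaks in both replicates. Median repeated bases were 2.35% in H1 windows and 56.7% in H2A windows, and the part of this in the widths was not tested. At Hist1h1b a single hotspot, 2138 bp long in replicate 1 and 2128 bp long in replicate 2, reached over the whole gene. H1 widths were not uniform: Hist1h1t had 231 and 100 bp, and Hist1h1a had 1562 and 805 bp. The widest hotspot of Hist1h1e, 1888 and 1758 bp, was also that of the H2B gene Hist1h2be. The H4 gene Hist2h4 had 2137 and 1617 bp, so wide hotspots were not confined to H1.

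Outside histone promoter windows, the genes and their 5 kb flanks held 115 peaks in replicate 1 and 100 in replicate 2. Of these peaks, 79 in each replicate overlapped a peak of the other. Within 500 bp of the start of another annotated gene lay 13 of them in replicate 1 and 12 in replicate 2. The peaks had lower scores, with medians of 53 in replicate 1 and 41 in replicate 2. They reached 60 genes in replicate 1 and 57 in replicate 2. At least 1 shared peak was within reach of 55 genes, and no such count was made for other genes. By place, 35 in replicate 1 and 32 in replicate 2 lay in gene bodies, 16 and 15 upstream, and 64 and 53 downstream. The density outside promoter windows rested on fewer peaks, 102 in replicate 1 and 88 in replicate 2. It was 33.1 peaks per 100 kb in replicate 1 and 28.5 in replicate 2, against 10.1 and 6.93 for the main chromosomes. The main chromosomes include DNA far from any gene, and no density was counted for the flanks of other genes. Whether histone flanks differ from those of other genes was therefore not tested. A peak at -3775.5 bp from the Hist4h4 start in replicate 1, with a score of 131, and its counterpart in replicate 2, with 119, lay at the start of H2afj, a replication-independent H2A gene.

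Other genes inside the clusters were not uniformly open. Of 10 non-histone protein-coding genes there, 5 had a shared promoter peak, beside 67.4% of all protein-coding genes. They were Trim17, whose peak is also that of Hist3h2a, Zfp184 (140 in replicate 1, 123 in replicate 2), Prss16 (97 and 82), Hfe (81 and 51) and Pom121l2 (80 and 58). The sodium-phosphate transporter family genes Slc17a1 and Slc17a3, and Trim38, had none in either replicate, and Slc17a4 (32, replicate 1) and Slc17a2 (14, replicate 2) had 1 weak peak each. All 5 lie in the stretch of the second Hist1 sub-cluster, where the nearest histone start was 6247 bp away for Trim38 and 19147 to 75768 bp away for the Slc17a genes.

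The genes known to serve histone expression were open throughout. All 22 listed factors had a shared promoter peak at or above percentile 90 in both replicates, beside 49.1% of all protein-coding genes. The 22 factors had medians of 140.5 in replicate 1 and 128.5 in replicate 2. They included Npat (141 and 135), Casp8ap2 (148 and 135), which encodes a further protein of the histone locus body, and Hinfp (143 and 131), the H4 promoter factor. Among those for mRNA processing were Slbp (143 and 130) and the U7 snRNP components Lsm10 (138 and 129) and Lsm11 (109 and 108). The NF-Y subunits Nfya (148 and 138), Nfyb (144 and 129) and Nfyc (140 and 120), which bind CCAAT, were open as well. All 11 replication-independent histone genes had such a peak too, beside the same 49.1%. These 11 had medians of 131 and 119 and included H2afz (145 and 137), H3f3b (146 and 141) and the centromeric H3 gene Cenpa (142 and 117).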

How the data were processed

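Per the labels, DNase-seq libraries of 2 biological replicates were processed by the submitters against mm10, and per-replicate peak and hotspot lists were deposited. The aligner, the peak caller and the treatment of reads that align to several places are not stated in the labels used here. The score of each peak (whole numbers from 1) and the -log10 value of each hotspot (capped at 100) are the authors' deposited values with no stated normalization. Intervals off the main chromosomes (233 and 213 peaks) and repeated coordinates (23 and 28) were left out.

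Gene models were GENCODE M21, and sequences were read from GRCm38, the same assembly as mm10. Overlap needed 1 bp. Repeated bases were counted from 36-base words found more than once on the main chromosomes, on either strand, in the window of 500 bp on each side of the start; the core window runs from 250 bases upstream to 50 downstream. Both steps were tested on simulated data. Divergent pairs had starts within 500 bp. Members, gene lists and motifs were chosen with earlier results of these data known. Genes named are the 2 highest and 2 lowest of each type by mean percentile, all without a peak, the Hist2, Hist3 and Hist4 genes, the testis genes and the listed factors; features chosen after their values were seen are the 3′ peaks, hotspot widths and the H4 genes by sub-cluster. No test was made. Python 3.11.15, pandas 2.3.3, numba 0.67.0 and, for global alignment of promoter windows, Biopython 1.88 were used.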

Additional observations from a re-analysis of the deposited data

How the results depend on the processing

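The count of 58 histone genes with a shared promoter peak was 56 to 59 under windows of 250 and 1000 bp, midpoints in the window, peaks at or above the list median, hotspots, gene-record starts, protein-coding members and start-codon windows. The 55 genes with other shared peaks became 38 to 63. Without replicate 1 or replicate 2 the first count was 58 and 58, and the second 57 and 60. Median scores without replicate 1 and without replicate 2, each from the remaining replicate, were 123 to 139 (Hist1 first sub-cluster), 119 to 136.5 (second), 112 to 134 (Hist2), 130 to 137 (Hist3), 124 to 125 (Hist4), 115 to 123 (H1), 119 to 138 (H2A), 121 to 140.5 (H2B), 114.5 to 132.5 (H3) and 123 to 130 (H4). As percentiles the medians were 98.55, 98.09, 97.45, 98.96 and 97.74 for these loci, and 96.96, 98.19, 98.49, 97.53 and 97.99 for H1 to H4, a change of scale. The Hist4 value of 124.5 was 121.5 with a window of 250 bp and with peak midpoints inside the window, and the Hist3 value of 133.5 was 127.75 with protein-coding members only and with each promoter peak counted once, where the Hist1 sub-clusters also changed order, to 124.25 for the first and 126.75 for the second. Start-codon windows and leaving out the 8 members with at least 99% repeated bases were added after seeing the data, as was the window at the last coding base. No paired analysis was possible because there is a single group. Depth is unknown, the score has no stated normalization, and near-identical copies limit what an absent peak shows.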
